A study of Mus musculus with 20 samples.

Results

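The respiratory chain genes of mouse haematopoietic cells were described here across 6 groups of RNA sequencing libraries, of 3 Runx2 genotypes in 2 cell types. Runx2 codes for a DNA-binding protein of the RUNX family. The members were all genes on the mitochondrial chromosome (chrM) and the genes whose symbols fit a name pattern for subunits of the respiratory chain or of ATP synthase. The pattern took Nduf, Sdh, Uqcr, Cyc1, Cox4 to Cox8 and Atp5 symbols but left out Ndufab1, a complex I subunit. Members also had to reach at least 10 counts in at least 3 of the 18 libraries. Of 147 rows that fitted the names, 103 reached that level, 15 of 37 on chrM and 88 of 110 in the nucleus, among 49997 rows of which 15588 reached it. The nuclear members were 36 genes of complex I, 4 of complex II, 4 complex II assembly factors (Sdhaf1 to Sdhaf4), 9 of complex III, 15 of complex IV, 16 of complex V and 4 pseudogenes. The chrM members were 7 genes of complex I, 1 of complex III, 2 of complex IV, 2 ribosomal RNAs and 3 tRNAs.

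The cells were primary mouse bone marrow cells kept in culture. HSC were sorted as CD201+ CD150+ cKit+ Sca1+ Lin-, the surface phenotype of stem cells, and HPC as CD201- CD150- cKit+ Sca1+ Lin-, a progenitor phenotype. Each population came as homozygous Runx2 knockout (hom), heterozygous knockout (het) and wild type (WT), with 3 libraries per group and 16663497 to 27061457 counts per library. The series' design text names floxed Runx2 deletion and CRISPR knockout, without saying which made a given library, and strain and age of the mice were not given in the sources used here. Nothing in the labels says that the 3 libraries of a group came from separate animals or cultures, so the p-values reflect only how far these libraries vary, which could be technical variation.

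The respiratory chain passes electrons from NADH (complex I) and succinate (complex II) through ubiquinol and complex III to cytochrome c and, at complex IV, to oxygen, and complex V uses the proton gradient so built to make ATP. Mitochondrial DNA encodes core subunits of complexes I, III, IV and V with the ribosomal and transfer RNAs needed to translate them, and the nucleus encodes all other subunits and the whole of complex II. Stem cells of the bone marrow are known for relying on glycolysis more than their progeny do, and differentiation of progenitors is accompanied by greater use of the respiratory chain.

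Runx2 itself followed the labels. It averaged 26.0 ± 1.7 normalised CPM in HSC hom, 85.1 ± 3.9 in HSC het and 122 ± 3.5 in HSC WT (SD, n = 3 each). It averaged 23.5 ± 1.1 normalised CPM in HPC hom, 104 ± 4.4 in HPC het and 126 ± 3.9 in HPC WT (SD, n = 3 each). Normalised CPM are read counts scaled to a common library total, with TMM factors over all 18 libraries. Procr, which encodes CD201, lay between 37.8 and 68.1 CPM in the 9 HSC libraries and between 4.51 and 7.20 CPM in the 9 HPC libraries. Slamf1, which encodes CD150, lay between 17.1 and 21.7 CPM in HSC and between 3.00 and 12.3 CPM in HPC. Kit overlapped, at 466 to 565 CPM in HSC and 377 to 561 CPM in HPC. Ly6a, which encodes Sca1, is listed at 0 in all 18 libraries, although Sca1 was a sort marker. The Y-linked gene Ddx3y lay between 121 and 167 CPM in all HSC libraries and is listed at 0 in all HPC libraries, and Xist, which is expressed from the inactive X chromosome, lay at 2539 to 4475 CPM in HPC and at most 1.26 CPM in HSC. Cell type and donor sex therefore cannot be told apart in any comparison of HSC with HPC.

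Promoters of 5 nuclear members on which the comparisons turn are given first. Uqcrh was called in HPC het, Ndufa11, Atp5h and Ndufb3 differed between WT HSC and WT HPC, and Ndufb1 is the complex I subunit whose hom effect differed between the cell types. Each sequence is the 250 bases before the annotated start, 5′ to 3′ on the strand of the gene, from RefSeq on build GRCm38.p6. Capitals mark matches to either of a pair of motifs often found at genes for mitochondrial proteins, the NRF1 core GCATGCGC and the ETS motif CCGGAAG, on both strands (reverse complements GCGCATGC and CTTCCGG). The YY1 motif AAGATGGC (reverse complement GCCATCTT) was also searched and has no match in these 5, and the Ndufb3 and Ndufb1 windows hold no match to any of the motifs.
Uqcrh, chr4:116075071-116075320, minus strand: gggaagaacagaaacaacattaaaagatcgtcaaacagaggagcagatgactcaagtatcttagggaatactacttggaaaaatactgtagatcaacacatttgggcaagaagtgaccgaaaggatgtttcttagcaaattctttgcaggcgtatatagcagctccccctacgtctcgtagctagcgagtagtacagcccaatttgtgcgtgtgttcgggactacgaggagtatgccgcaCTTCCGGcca
Ndufa11, chr17:56717512-56717761, plus strand: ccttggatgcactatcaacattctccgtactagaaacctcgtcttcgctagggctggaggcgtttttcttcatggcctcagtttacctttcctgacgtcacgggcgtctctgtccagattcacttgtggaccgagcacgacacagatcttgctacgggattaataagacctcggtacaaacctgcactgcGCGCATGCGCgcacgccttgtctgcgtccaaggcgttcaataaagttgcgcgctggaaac
Atp5h, chr11:115419920-115420169, minus strand: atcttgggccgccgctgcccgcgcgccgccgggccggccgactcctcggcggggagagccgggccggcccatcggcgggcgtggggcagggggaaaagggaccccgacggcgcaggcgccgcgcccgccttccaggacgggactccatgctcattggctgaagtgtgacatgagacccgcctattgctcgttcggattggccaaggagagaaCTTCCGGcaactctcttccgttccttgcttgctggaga
Ndufb3, chr1:58586147-58586396, plus strand: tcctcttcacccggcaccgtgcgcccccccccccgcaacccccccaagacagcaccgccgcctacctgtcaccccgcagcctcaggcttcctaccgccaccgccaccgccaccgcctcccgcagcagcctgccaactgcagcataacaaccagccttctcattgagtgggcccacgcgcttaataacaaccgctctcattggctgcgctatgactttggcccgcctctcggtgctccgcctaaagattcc
Ndufb1, chr12:101975739-101975988, minus strand: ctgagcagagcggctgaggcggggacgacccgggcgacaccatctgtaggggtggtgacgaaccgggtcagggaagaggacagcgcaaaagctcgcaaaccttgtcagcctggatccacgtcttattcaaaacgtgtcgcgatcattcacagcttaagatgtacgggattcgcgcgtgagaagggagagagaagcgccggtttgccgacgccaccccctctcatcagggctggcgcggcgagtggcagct

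Of the 88 nuclear members, 69 were matched by symbol to 74 such windows. The ETS motif was held by 18.9% of the members' windows and 6.91% of all 32851 windows of the same length, the NRF1 core by 9.46% and 2.26%, and the YY1 motif by 1.35% and 1.56%. In the Ndufa11 window the NRF1 core matched on both strands at overlapping positions, 58 and 60 bases before the start. Members with and without an NRF1 core or an ETS match were counted in WT HSC against WT HPC. Of the 19 with a match, 2 were higher, 6 lower and 11 not called. Of the 50 without a match, 10 were higher, 21 lower and 19 not called. Over all genes tested, 27.7% were higher and 27.2% lower. The matches are letter matches in a short window, and binding was not tested.

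The 15 chrM members took more of each library than the 88 nuclear members did. They held 1.72%, 1.56% and 1.68% of the counts in the HSC hom libraries, 1.57%, 1.46% and 1.74% in HSC het and 1.86%, 2.09% and 1.54% in HSC WT. They held 2.59%, 2.25% and 2.22% in HPC hom, 2.29%, 1.92% and 2.14% in HPC het and 2.38%, 2.21% and 1.76% in HPC WT. Every HPC hom library lay above every HSC library, while the HSC genotypes overlapped among themselves, as did those of HPC. HSC WT replicate 2, at 2.09%, was the highest HSC library. The nuclear members were steadier and held 0.634% to 0.760% in HSC hom, 0.691% to 0.775% in HSC het, 0.670% to 0.728% in HSC WT, 0.674% to 0.734% in HPC hom and 0.673% to 0.731% in HPC het, against 0.681% to 0.769% in HPC WT. The ratio of chrM to nuclear counts averaged 2.40 ± 0.22 in HSC hom, 2.20 ± 0.07 in HSC het and 2.63 ± 0.50 in HSC WT (SD, n = 3 each), and 3.30 ± 0.24 in HPC hom, 3.03 ± 0.34 in HPC het and 2.95 ± 0.31 in HPC WT (SD, n = 3 each). In bulk RNA, fewer cells with a transcript and less of it per cell cannot be told apart.

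**Figure D1:**
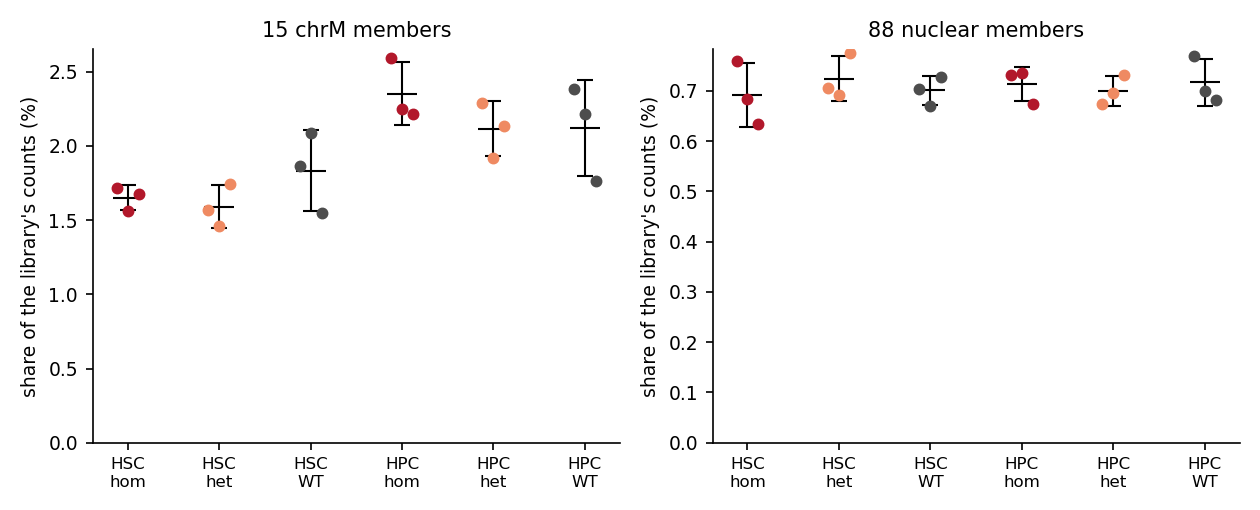
Share of each library's counts (%, from 0) in the 15 chrM members (left) and the 88 nuclear members (right), with 1 point per library and bars for the mean and SD of 3 libraries. The chrM share runs from 1.46% to 2.59% with the HPC libraries mostly above the HSC libraries, and the nuclear share stays between 0.634% and 0.775%.

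COX1, the catalytic subunit of complex IV, was the most abundant member. It had 8738, 7947 and 8732 normalised CPM in HSC hom, 7811, 7639 and 8842 in HSC het and 9021, 9012 and 7529 in HSC WT. It had 14710, 12320 and 11930 normalised CPM in HPC hom, 13040, 11480 and 12340 in HPC het and 13380, 11780 and 9509 in HPC WT. In normalised CPM all HPC libraries exceeded all HSC libraries for this gene, and within a cell type the genotypes overlapped. As a plain share of counts the cell types overlapped. COX1 took 0.910% in HPC WT replicate 3 and 0.801% to 0.955% in HSC WT. Of the other chrM protein genes, ND1, ND2, ND4, ND5 and ND6 (complex I) and CYTB (complex III) had between 191 and 2831 normalised CPM in every library. The counts take no account of strand, so reads of a gene and from the opposite strand of chrM cannot be told apart.

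The 6 protein genes that lie next to each other between COX1 and ND4 were almost without counts. ND3 had 2.73 to 9.07 normalised CPM over the 18 libraries, COX3 had 0.412 to 4.53, ND4L had 0.482 to 2.73, COX2 and ATP6 stayed at or under 0.337 and 0.287, and ATP8 is listed at 0 in every library. Together they took 0.00108% to 0.00150% of counts in HPC WT, beside 0.910% to 1.22% for COX1 in the same libraries. The annotation also holds 2 genes on chromosome 1, Gm10925 (mm10, 24613971 to 24614651) and Gm10222 (24612404 to 24612700), in a nuclear copy of mitochondrial DNA; their exon lengths of 681 and 297 bases equal those of ATP6 and ND4L, and both are listed at 0 in every library. Reads that match 2 places equally well are by default not counted by the counting tool, and whether that accounts for the low counts was not tested. The levels and calls of ND3, ND4L, COX2, COX3, ATP6 and ATP8 are therefore uncertain, and the values of complex V on chrM were not usable.

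**Figure D2:**
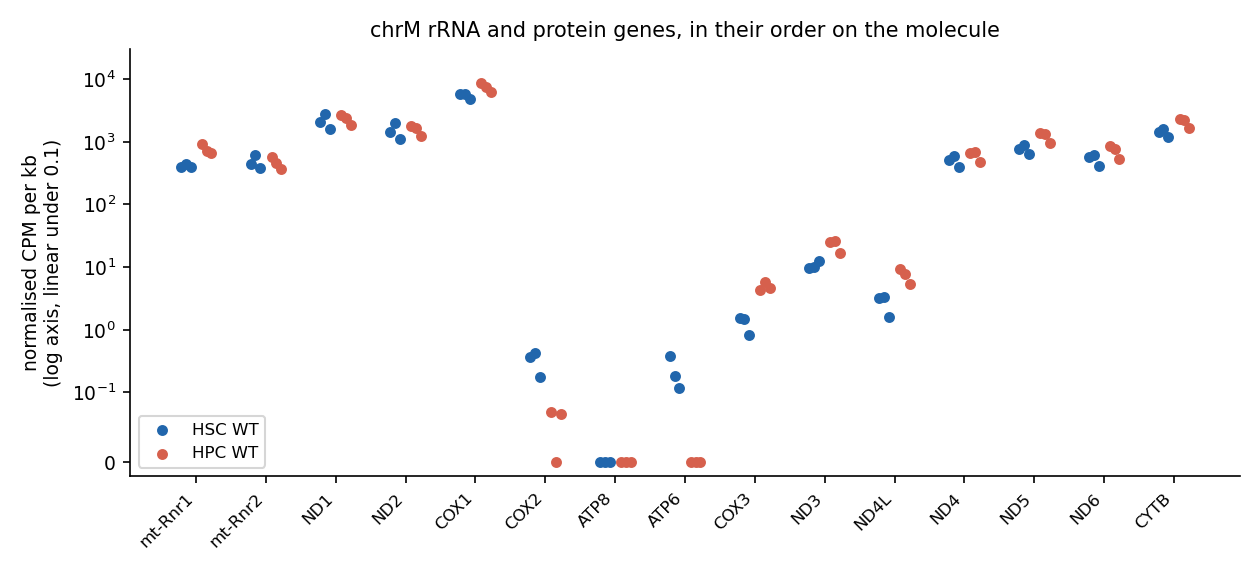
Normalised CPM per kb of exon (log axis, linear under 0.1) of the 2 rRNA and 13 protein genes of chrM, in their order on the molecule, with 1 point per HSC WT library (blue) and HPC WT library (red). The genes from COX2 to ND4L lie orders of magnitude below COX1 and ND4, on either side of them.

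Levels among the nuclear members were compared per kb of exon, averaged over the WT groups of both cell types. In complex I the highest was Ndufa4, at 123 normalised CPM per kb, a small subunit now known to belong to complex IV although its symbol names complex I, and the lowest was Ndufa11, at 7.41, around a median of 44.0 for 36 genes. In complex II, Sdha, the flavoprotein that oxidises succinate, stood at 121 and Sdhb, its iron-sulfur partner, at 62.9. In complex III, Uqcrh, the hinge protein, stood at 204 and Uqcr10 at 17.2. The level of Uqcr10 is uncertain because 38.6% of its exons overlap another gene. In complex IV, Cox4i1 stood at 254 and Cox7a1 at 2.39, with a median of 119 for 15 genes. In complex V, Atp5b, the catalytic beta subunit, stood at 465 and Atp5k at 26.6, with a median of 101 (16 genes). Ndufa6 and Atp5g1 are listed at 0 in all 18 libraries, although both are ordinary subunits, and nothing is read from those zeros.

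The isoform pairs were used unevenly. Cox4i1, the general isoform of subunit 4, had 240 normalised CPM per kb in HSC WT and 267 in HPC WT, and Cox4i2, the isoform known from lung and hypoxic cells, had 22.8 in HSC WT and 11.7 in HPC WT. Cox6a1 had 157 in HSC WT and 176 in HPC WT, and Cox6b1 had 139 and 160 in the same groups. Cox6b2, known as the testis isoform, had 23.1 in HSC WT and 12.5 in HPC WT. Cox7a2, the general isoform of subunit 7a, had 31.7 in HSC WT and 22.6 in HPC WT, with 63% of its exons overlapping another gene, and Cox7a1, the heart and muscle isoform, had 2.69 in HSC WT and 2.09 in HPC WT. Cox7a2l, a related factor of respiratory supercomplexes, had 206 in HSC WT and 185 in HPC WT. Cox8a had 166 in HSC WT and 169 in HPC WT, while Cox7b2, Cox8c and Ndufa4l2 are listed at 0 in the WT libraries and Cox8b stayed at or under 0.05 normalised CPM there. Of the genes for subunit c of complex V, Atp5g2 had 160 in HSC WT and 178 in HPC WT, and Atp5g3 had 83.0 and 74.8, all per kb.

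No member passed the test between Runx2 genotypes in HSC. Of 101 members tested, 0 passed in hom against WT, 0 in het against WT and 0 in hom against het (edgeR quasi-likelihood test, Benjamini-Hochberg adjusted over 14959 genes, threshold 0.05). At an unadjusted p under 0.05 there were 10 in hom against WT, 17 in het against WT and 18 in hom against het, that is 9.9%, 16.8% and 17.8% of members, beside 18.4%, 13.8% and 11.7% of all genes at the same threshold. At the adjusted threshold, over all genes, 1.2% were called higher and 0.802% lower in hom against WT, 0.0267% higher and 0.00668% lower in het against WT, and 0.00668% higher and 0.00668% lower in hom against het. The chrM members had a median log2 fold change of -0.29 in hom against WT and -0.26 in het against WT, beside -0.06 and 0.07 for the nuclear members and 0.00 and 0.01 for all genes tested. The summed level of the proliferation list was 2291 to 2718 normalised CPM in HSC hom and 2314 to 2344 in HSC het, against 2690 to 2896 in HSC WT, with Rrm2 at 0, and the hom libraries overlapped the WT libraries while the het libraries lay below them. Of its 12 tested genes, Ccnb1 (-0.46), Ccna2 (-0.36) and Cdk1 (-0.29) were lower in hom against WT, and the part of this in the chrM values was not tested. These comparisons share the WT libraries, and HSC WT replicate 2 held the highest level of ND1 and ND2 among the 9 HSC libraries, at 2681 and 2040 normalised CPM. ND2 had 1095, 999 and 1008 in HSC hom and 1121, 955 and 1345 in HSC het, against 1471, 2040 and 1145 in HSC WT. Its log2 fold change in hom against WT was -0.56 ± 0.18 (SE) with an edgeR adjusted p of 0.147. Without the filter on low counts, 7 members were called lower in hom against WT, 6 of them on chrM, and 7 lower on chrM with 1 nuclear member higher in het against WT. DESeq2 called Ndufb1 lower in hom against WT and in hom against het and 0 members in het against WT. Without HSC hom replicate 3, 1 member passed in hom against WT and 3 lower ones in hom against het (Cox6b2, Cox7a2l and Uqcrh).

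Ndufb1 (mm10, chromosome 12, 101968096 to 101975738, minus strand), an accessory subunit of complex I, was the member with the smallest p in hom against WT in HSC. It had 7.79, 8.21 and 7.52 normalised CPM in HSC hom, 13.7, 13.1 and 11.9 in HSC het and 9.42, 11.3 and 15.9 in HSC WT. The HSC hom libraries lay below all other HSC libraries. The log2 fold change was -0.62 ± 0.18 (SE) in hom against WT (edgeR adjusted p = 0.0831) and -0.70 ± 0.18 in hom against het (edgeR adjusted p = 0.175). In HPC it had 14.6, 21.2 and 20.7 normalised CPM in hom, 17.8, 14.4 and 17.4 in het and 18.3, 14.9 and 13.1 in WT, and these groups overlapped. The hom effect differed between the cell types by -0.93 ± 0.24 on the log2 scale, HSC minus HPC (edgeR adjusted p = 0.0393). Among all 102 members tested for this difference, 1 was higher and 1 lower, beside 1.06% higher and 1.73% lower over all genes. The difference for Ndufb1 kept its sign but passed in only 4 of 12 fits that each left out a library, with an adjusted p of up to 0.127; it was lost without HSC hom replicate 1 or 2, HSC WT replicate 2 or 3, HPC hom replicate 2 or 3, or HPC WT replicate 2 or 3.

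The other member with a differing hom effect was Cox6a2, the heart and skeletal muscle isoform of complex IV subunit 6a. It had 6, 8 and 11 counts in HSC hom, 0, 0 and 4 in HSC het and 0, 0 and 1 in HSC WT. It had 50, 86 and 92 counts in HPC hom, 21, 29 and 53 in HPC het and 51, 147 and 171 in HPC WT. Every HSC hom library lay above every HSC WT library, with 25 counts against 1, while HPC hom overlapped HPC WT. After scaling to the libraries' total counts the ratio was 27.6 (95% exact interval 4.51 to 1130, counting error only). The gene was picked by these same counts, so the ratio only describes these libraries. The low-count filter dropped Cox6a2 from the HSC fit and kept it in the HPC fit, so it entered the test through HPC, where it is higher. The fitted difference was 4.86 ± 1.19 on the log2 scale, HSC minus HPC (edgeR adjusted p = 0.0313), a size that depends on the prior count because HSC WT is near 0. It passed in 4 of 12 fits that left out a library (adjusted p up to 0.0988), and was lost without HSC hom replicate 2, any HSC WT replicate, HPC hom replicate 1 or 3, or HPC WT replicate 2 or 3. Of the exons of Cox6a2, 10.6% overlap Itgad, so its level is uncertain. For the het effect, 0 of 102 members differed between the cell types by edgeR and 0 by DESeq2. Over all genes, edgeR called 0.804% higher and 1.14% lower at the same adjusted threshold. At an unadjusted p under 0.05 there were 6 members, and the share of all genes at that unadjusted threshold is not given here.

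In HPC few members changed with genotype, a smaller share than over all genes. In hom against WT 1 of 100 members was called higher and 0 lower, beside 4.92% higher and 4.29% lower over all 13855 genes tested. In het against WT 1 was higher and 3 lower, beside 9.15% and 6.99%. In hom against het 1 was higher and 0 lower, beside 3.63% and 5.77%. The median log2 fold change of the 86 nuclear members tested was 0.01 in hom against WT, -0.03 in het against WT and 0.04 in hom against het, and that of the 14 chrM members 0.14, -0.06 and 0.13. These comparisons share libraries and are not independent of each other.

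Atp5mpl, a small membrane subunit of complex V, was the member that rose in HPC hom against WT. It had 43.3, 47.0 and 46.2 normalised CPM in HPC hom, 40.8, 35.9 and 43.9 in HPC het and 42.0, 34.3 and 31.3 in HPC WT. All HPC hom libraries lay above all HPC WT libraries. The log2 fold change was 0.35 ± 0.10 (SE, edgeR adjusted p = 0.0256), and the call was lost without HPC hom replicate 2 or 3 or HPC WT replicate 2 or 3, with an adjusted p of up to 0.142. Leaving out HPC WT replicate 1 raised the count to 6 members, 5 higher and 1 lower.

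Uqcrh, the hinge protein of complex III, rose in HPC het against WT. It had 131, 140 and 146 normalised CPM in HPC het and 128, 115 and 110 in HPC hom, against 117, 102 and 89.2 in HPC WT. The het libraries lay above the WT libraries without overlap, with a log2 fold change of 0.44 (SE 0.08) and an edgeR adjusted p of 0.00125, and the call held in 6 of 6 fits that left out a library. Uqcrq, a small subunit of the same complex, moved the opposite way, with 29.3, 34.5 and 31.3 normalised CPM in HPC het against 46.9, 42.2 and 35.8 in HPC WT, and it fell by 0.39 ± 0.10 on the log2 scale (edgeR adjusted p = 0.011). That call was lost without HPC het replicate 1 or HPC WT replicate 1 (adjusted p of 0.0541 and 0.0612). Ndufv1, the subunit of complex I that binds NADH, had 64.9, 66.0 and 73.6 normalised CPM in HPC het against 82.4, 77.7 and 76.9 in HPC WT, a fall by 0.21 ± 0.06 (edgeR adjusted p = 0.029). It passed in 1 of 6 fits without a library, namely without HPC het replicate 3, and its adjusted p reached 0.119. Cox6a2 had 1.34, 1.71 and 2.79 normalised CPM in HPC het against 2.54, 7.33 and 8.02 in HPC WT; the groups overlapped, the fall was by 1.59 ± 0.44 (edgeR adjusted p = 0.0353), and the call was lost without HPC het replicate 1 or 2 or HPC WT replicate 2 or 3 and in a fit of the 2 groups alone (adjusted p up to 0.103).

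CYTB, the cytochrome b subunit of complex III encoded on chrM, was the member that rose in HPC hom against het. It had 2806, 2631 and 2466 normalised CPM in HPC hom, against 2029, 1726 and 2025 in HPC het, with 2603, 2545 and 1893 in HPC WT. Hom and het did not overlap, with a log2 fold change of 0.45 (SE 0.11) and an edgeR adjusted p of 0.0144, and the call was lost without HPC het replicate 2 (adjusted p = 0.0703). ND5 had 2831, 2672 and 2482 normalised CPM in HPC hom against 2328, 2059 and 2143 in HPC het and did not pass (log2 fold change 0.29, edgeR adjusted p = 0.13). In a fit of these 2 groups alone 6 members passed, 4 of the 5 higher ones on chrM (CYTB, ND4, ND5 and ND6).

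**Figure D3:**
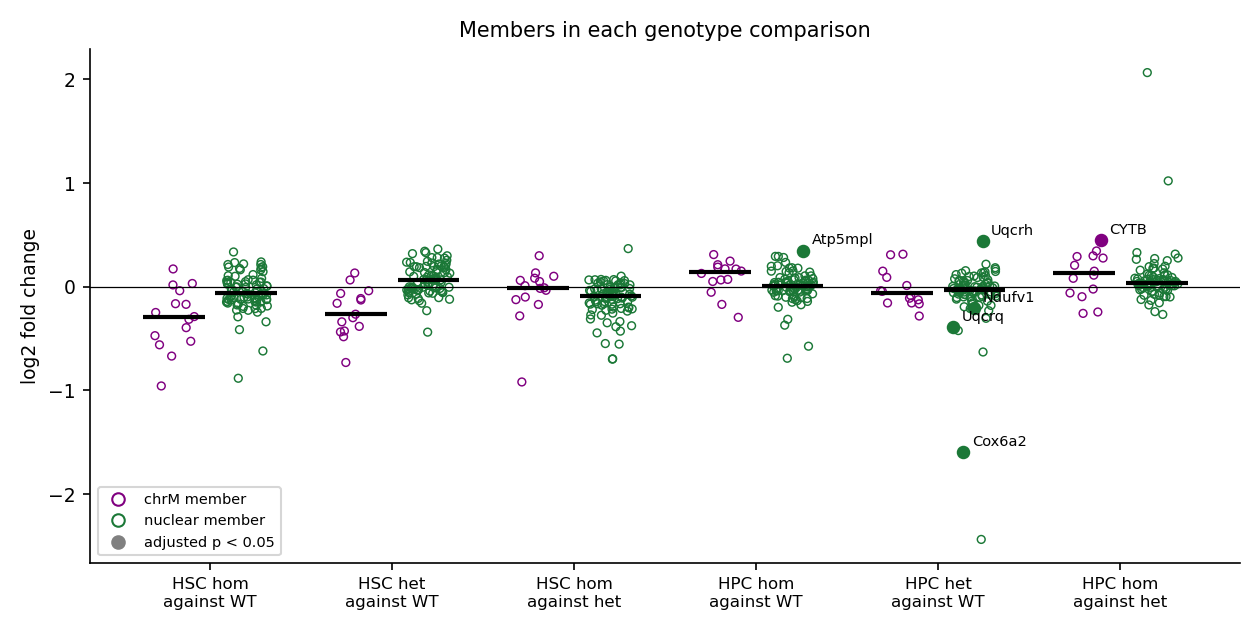
Log2 fold changes of the tested members in 6 genotype comparisons, 1 point per gene, chrM members in purple and nuclear members in green, filled where the edgeR adjusted p is under 0.05, with black lines at the medians. The medians lie between -0.29 and 0.14, and 6 points are filled, all in HPC.

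**Figure D4:**
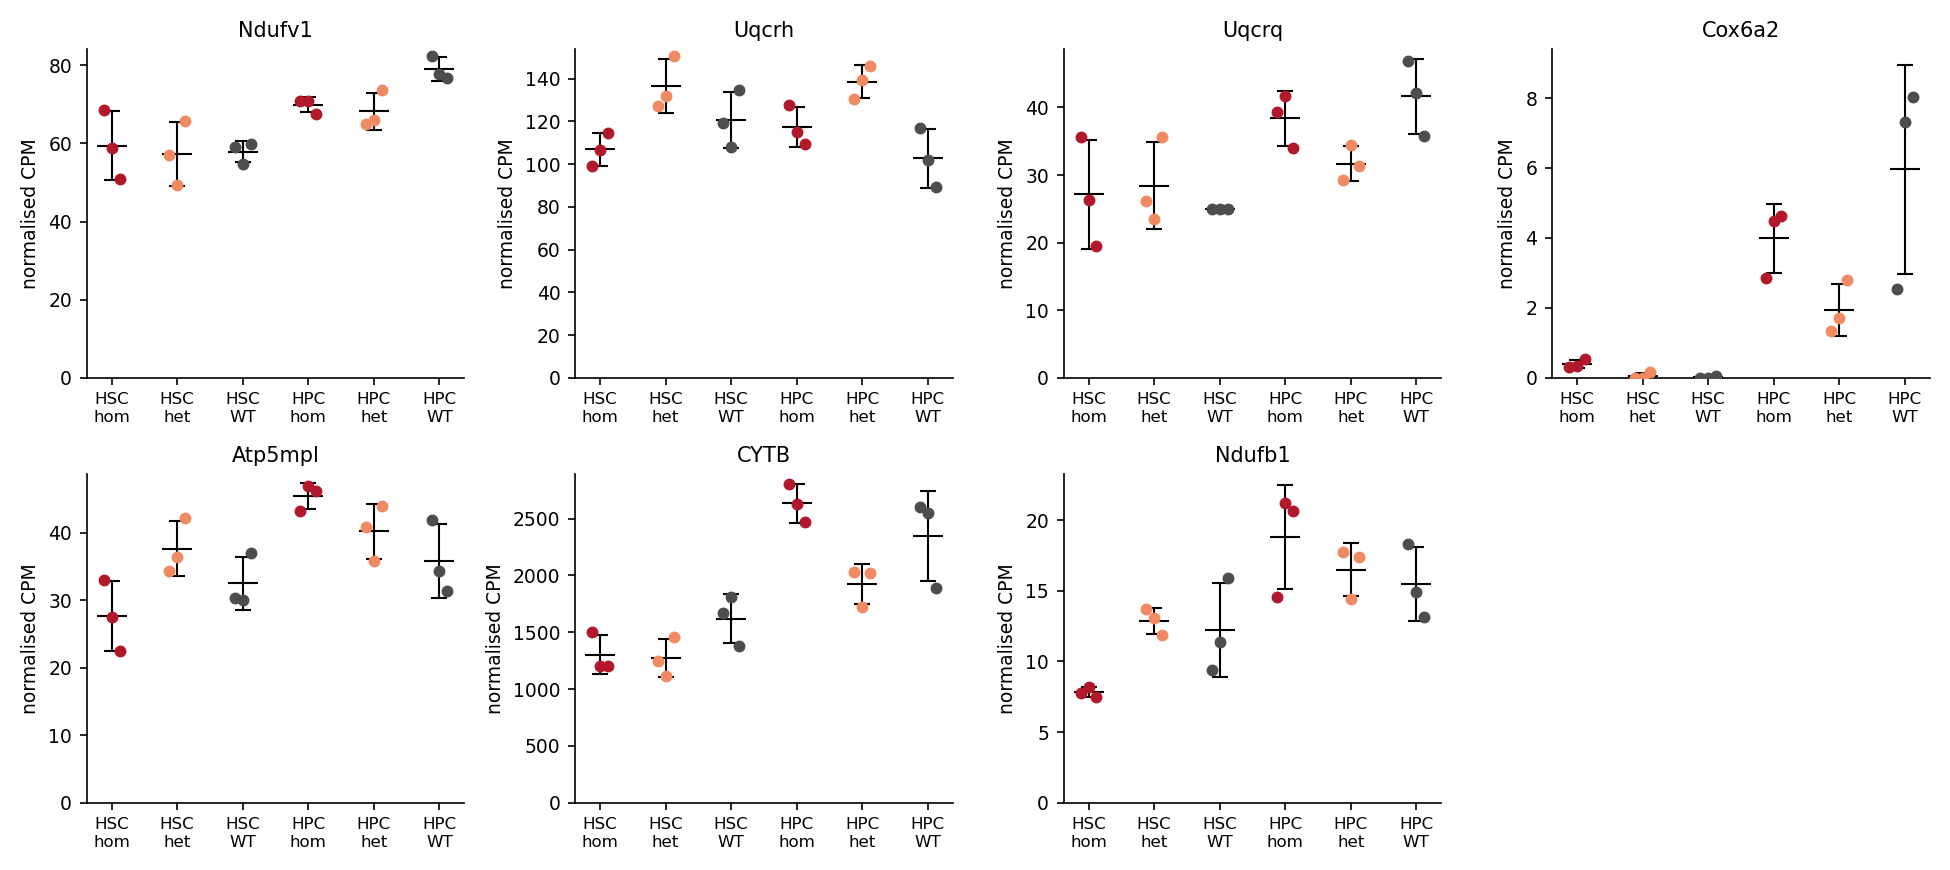
Normalised CPM per library of the 7 members called in a genotype comparison or in the difference of the hom effect, with 1 point per library and bars for the mean and SD of 3 libraries. Ndufb1 is lowest in the HSC hom libraries, at 7.52 to 8.21, and Uqcrh is higher in HPC het, at 131 to 146, than in HPC WT.

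Marker lists of several cell types moved with genotype in HPC beside these members. In HPC hom 9 of 11 tested neutrophil markers and 9 of 10 monocyte markers were higher than in WT, and in HPC het 4 of 11 and 10 of 10. The summed level of 12 neutrophil markers was 2733 to 2917 normalised CPM in HPC hom and 2075 to 2494 in HPC het, against 1665 to 1773 in HPC WT, with Lcn2 at 0 in all these groups. The summed level of 10 monocyte markers was 833 to 932 normalised CPM in HPC hom and 873 to 894 in HPC het, against 480 to 527 in HPC WT. The dendritic list summed to 277 to 339 normalised CPM in HPC hom and 435 to 479 in HPC het, against 243 to 287 in HPC WT, with Xcr1 at 0. The megakaryocyte list summed to 330 to 498 in HPC hom and 250 to 331 in HPC het, against 496 to 553 in HPC WT. The stem cell list summed to 817 to 846 in HPC hom and 932 to 984 in HPC het, against 755 to 830 in HPC WT, with Ly6a at 0. Kit alone, at 377 to 561 CPM in the HPC libraries, makes up a large part of this sum. In the dendritic, megakaryocyte and stem cell sums the HPC hom libraries overlapped the WT libraries, while the HPC het libraries did not. Of the megakaryocyte list only Itga2b was called in HPC hom against WT. Of the dendritic list only Flt3 and H2-Ab1 were called in HPC het against WT. Of 9 mast cell, basophil and eosinophil markers, 6 were higher and 2 lower in HPC hom against WT, and 3 higher and 2 lower in HPC het against WT. Of 12 proliferation genes tested, 5 were lower in HPC het against WT and 0 differed in HPC hom against WT. The part of these shifts in the calls of Atp5mpl, Uqcrh, Uqcrq, Ndufv1, Cox6a2 and CYTB was not tested.

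Genes of 6 related lists were compared with the same shares over all genes, 4.92% higher and 4.29% lower in HPC hom against WT and 9.15% higher and 6.99% lower in HPC het against WT. Of 42 assembly factors tested, 0 were higher and 0 lower in hom against WT by edgeR, with 0 at an unadjusted p under 0.05, and 0 higher and 2 lower in het against WT, Cox10 (haem synthesis for complex IV, log2 fold change -0.30) and Ndufaf4 (-0.28). Of 29 genes for mitochondrial DNA and RNA upkeep, 2 were lower in hom against WT (6.9%), Hsd17b10 (-0.30) and Rexo2 (-0.24), and 3 in het against WT (10.3%), Elac2 (-0.28), Mgme1 (-0.29) and Rexo2 (-0.26), and 0 were higher in either. Of 77 mitochondrial ribosomal proteins, 0 passed in hom against WT by edgeR, with 6 at an unadjusted p under 0.05, and 5 were lower in het against WT (6.49%), among them Mrpl57 (-0.33) and Mrpl17 (-0.32). Among 11 regulators of mitochondrial biogenesis, Gabpa, an ETS factor, was higher in hom against WT (0.18), and Pprc1 was lower in het against WT (-0.22). A list of 21 genes held those of ubiquinone synthesis, carriers and the ATPase inhibitor, with the complex I subunit Ndufab1 and the member Atp5md. In it Pdss1, which makes the side chain of ubiquinone, had a log2 fold change of -0.52 in het against WT and 0.75 in hom against het. Among 24 genes of the citric acid cycle and pyruvate dehydrogenase, Pdk2, a kinase that inhibits pyruvate dehydrogenase, was higher in het against WT (0.66), and Dlst (-0.17) and Pdhx (-0.26) were lower. In HSC, 0 genes of these 6 lists passed in hom against WT or in het against WT by edgeR, with 1 to 7 per list at an unadjusted p under 0.05.

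More members differed between the cell types than between genotypes, and so did a larger share of all genes. Beside all genes, a smaller share of members was higher in WT HSC and a larger share lower. In WT HSC against WT HPC, 16 of 102 members were higher and 43 lower, that is 15.7% and 42.2%, beside 27.7% higher and 27.2% lower over 15431 genes tested (edgeR quasi-likelihood test, adjusted p under 0.05). The low-count filter kept TrnN and Ndufs5-ps, called higher, in the HSC fit and not in the HPC fit, and Cox6a2, called lower, in the HPC fit and not in the HSC fit, so their directions go with how they entered. Among the 99 members kept in both fits, 14 were higher and 42 lower. On chrM 1 of 15 was higher and 9 lower, and in the nucleus 15 of 87 were higher and 34 lower. The median log2 fold change was -0.44 for chrM members, -0.14 for nuclear members and 0.03 for all genes. These values rest on the TMM factors between the cell types. As plain shares of counts, the nuclear members averaged 0.701% in HSC WT and 0.717% in HPC WT. The chrM members averaged 1.83% and 2.12%, and the libraries overlapped in both shares. How many of the lower nuclear calls would remain without such factors was not tested. Complex I had 5 nuclear genes higher and 17 lower of 36, complex II 0 and 1 of 4, complex III 3 and 5 of 9, complex IV 3 and 5 of 15 and complex V 1 and 6 of 16. Of 4 complex II assembly factors 1 was higher, as were 2 of the 3 tested pseudogenes, whose reads can be shared with their parent genes. The chrM calls include ND3, ND4L and COX3, lower at -1.06, -1.45 and -1.95 on the log2 scale and uncertain for the low counts already given, and 2 tRNAs, TrnP (-1.19) and TrnN (1.52), named after their values were seen. Donor sex and table go with cell type here, and the X-linked members were Cox7b, Ndufa1 and Ndufb11, of which Cox7b was called, lower in HSC.

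**Figure D5:**
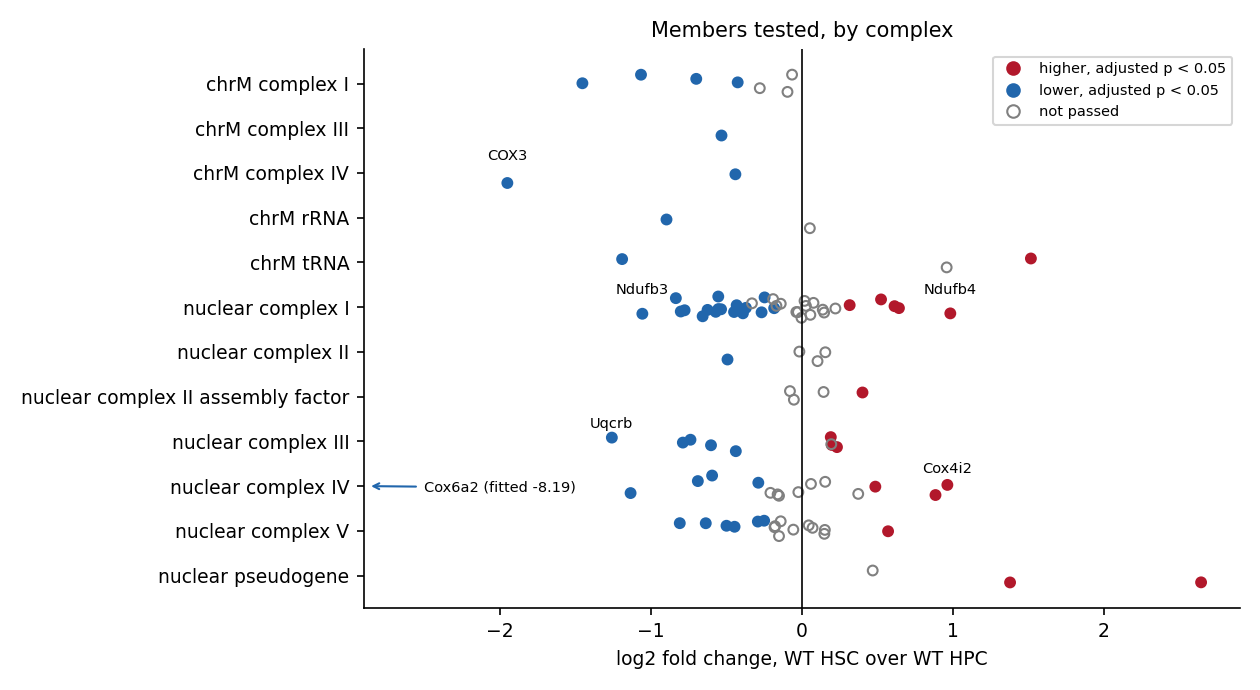
Log2 fold change of WT HSC over WT HPC for the 102 tested members by complex, 1 point per gene, red where higher, blue where lower and open where the edgeR adjusted p missed 0.05; Cox6a2 lies off the axis at a fitted -8.19. Blue points outnumber red ones in nuclear complexes I to V and in the chrM genes of complexes I, III and IV.

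In complex I, Ndufb3, an accessory subunit of the membrane arm, was the member with the smallest p. It had 20.6, 21.1 and 23.0 normalised CPM in HSC WT, against 48.5, 45.5 and 40.8 in HPC WT, and the groups did not overlap. It had 20.1 to 22.4 in HSC hom and 24.0 to 26.5 in HSC het, the het libraries all above HSC WT, and 44.8 to 51.8 in HPC hom and 43.0 to 52.5 in HPC het. The log2 fold change was -1.06 ± 0.09 (SE, edgeR adjusted p = 3.0e-09). Ndufa9, a subunit near the quinone site, followed with 60.8, 56.8 and 63.4 in HSC WT against 115, 101 and 93.5 in HPC WT (log2 fold change -0.78 ± 0.09, edgeR adjusted p = 1.51e-07), and 5.3% of its exons overlap another gene. Ndufv1 was lower in HSC WT by the log2 fold change -0.45, and the core subunit Ndufs1 by -0.18, with 8.3% of its exons overlapping another gene. Ndufb4 was higher, with 11.3, 12.2 and 11.5 in HSC WT against 6.01, 5.63 and 6.05 in HPC WT (0.98 ± 0.16, edgeR adjusted p = 1.78e-05). Ndufs7, an iron-sulfur subunit with 6.7% of its exons overlapping another gene, was higher as well (0.52 ± 0.10), as was Ndufa11 (0.61 ± 0.12). Of the chrM subunits of the same complex, ND5 was lower by the log2 fold change -0.70 ± 0.12 and ND6 by -0.42 ± 0.17, while ND1, ND2 and ND4 did not pass, at -0.09, -0.06 and -0.28. The call of ND6 was lost without HSC WT replicate 3 or HPC WT replicate 1 or 2 (adjusted p up to 0.217), and that of Ndufs1 without HSC WT replicate 2 or 3 or HPC WT replicate 1 or 2 (adjusted p up to 0.153).

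Sdha, in complex II, had 292, 274 and 293 normalised CPM in HSC WT, against 427, 404 and 380 in HPC WT. The groups did not overlap, and the log2 fold change was -0.50 ± 0.07 (SE, edgeR adjusted p = 1.44e-06). Sdhb did not pass (0.10, edgeR adjusted p = 0.382). In complex III, Uqcrb had 32.5, 34.3 and 41.6 in HSC WT, against 97.5, 87.2 and 74.8 in HPC WT, the largest log2 fold change among the 9 genes of that complex (log2 fold change -1.26 ± 0.11, edgeR adjusted p = 3.05e-09). Uqcrc2, a core protein with 26.7% of its exons shared with Pdzd9, was lower too (-0.44 ± 0.06), and CYTB on chrM (-0.53 ± 0.13). Uqcrfs1, the Rieske iron-sulfur protein, was higher (0.20 ± 0.08, edgeR adjusted p = 0.0328), but its call was lost without any of the HSC WT libraries or HPC WT replicate 2 or 3 (adjusted p up to 0.171). Cyc1, the cytochrome c1 subunit, did not pass (0.20 ± 0.11, edgeR adjusted p = 0.157).

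In complex IV, COX1 was lower in HSC WT (log2 fold change -0.44 ± 0.11, edgeR adjusted p = 0.00159), and so was Cox5b (-1.13 ± 0.18), named after its values were seen. Of the less abundant isoforms, Cox4i2 and Cox6b2 were higher in HSC WT, Cox6a2 was lower and Cox7a1 did not pass. Cox4i2 had 17.4, 20.5 and 18.4 normalised CPM in HSC WT, against 11.5, 8.62 and 8.72 in HPC WT (0.96 ± 0.13, edgeR adjusted p = 1.05e-06), and Cox6b2 averaged 14.2 ± 2.5 in HSC WT and 7.72 ± 0.28 in HPC WT (SD, n = 3 each), with no overlap and a log2 fold change of 0.89 ± 0.17. Cox4i1, the abundant partner of Cox4i2, did not pass (-0.15, edgeR adjusted p = 0.137). Cox6b1, the abundant partner of Cox6b2, did not pass either (-0.21, edgeR adjusted p = 0.123), nor did the core subunit Cox5a (0.06). Cox6a2 had 1 count over the 3 HSC WT libraries and 369 over the 3 HPC WT libraries, a ratio of 0.00274 (95% exact interval 6.93e-05 to 0.0154, counting error only). The low-count filter kept this gene in the HPC fit and not in the HSC fit, so its direction goes with how it entered. The ratio only describes these libraries. Cox7a2 was called higher (0.49), with 63% of its exons overlapping another gene. In complex V, Atp5h had 74.6, 70.8 and 75.7 in HSC WT, against 129, 107 and 108 in HPC WT (-0.64 ± 0.08, edgeR adjusted p = 1.11e-06), Atp5b was lower by the log2 fold change -0.50 ± 0.09 and Atp5a1 by -0.25 ± 0.08, and Atp5d, the delta subunit, was higher (0.57 ± 0.11). Atp5h was chosen after its values were seen, and the call of Atp5a1 was lost without HPC WT replicate 1 (adjusted p = 0.0697).

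Of the 2 ribosomal RNAs of chrM, which are transcribed together, mt-Rnr1 was lower in HSC WT. It had 384, 418 and 377 normalised CPM in HSC WT, against 881, 689 and 630 in HPC WT, and the log2 fold change was -0.90 ± 0.12 (SE), with an edgeR adjusted p of 2.75e-06. mt-Rnr2 had 688, 990 and 601 in HSC WT, against 890, 719 and 588 in HPC WT, and did not pass (0.05 ± 0.22, edgeR adjusted p = 0.854). The first did not overlap between the groups and the second did. Mitochondrial ribosomal RNAs are known to carry only short A tails, and the labels give polyadenylated RNA as the material of the libraries. Whether the 2 genes differ in their change was not tested.

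In WT HSC against WT HPC, each of the 6 related lists held more lower than higher genes, beside 27.7% higher and 27.2% lower over all genes. Of 42 assembly factors, 3 were higher (7.14%) and 21 lower (50.0%, median log2 fold change -0.24), among them Cox17, a copper chaperone of complex IV (-0.92), Coa5 (-0.54) and Uqcc1 (-0.58), with Ttc19 higher (0.71). Of 77 mitochondrial ribosomal proteins, 8 were higher (10.4%) and 25 lower (32.5%, median -0.12), among them Mrps18c (-1.15) and Mrpl48 (-0.78), with Mrpl52 higher (1.36). Of 24 genes of the citric acid cycle and pyruvate dehydrogenase, 3 were higher (12.5%) and 10 lower (41.7%, median -0.13), among them Pdha1 (-0.78), Dld (-0.61) and Dlst (-0.55), with Pdk3, a kinase that inhibits pyruvate dehydrogenase, higher (0.60). Of 29 genes for mitochondrial DNA and RNA upkeep, 6 were higher (20.7%) and 11 lower (37.9%), among them the transcription elongation factor Tefm (-0.77), with Fastk higher (0.66). Of 21 carriers and ubiquinone genes, 4 were higher (19.0%) and 9 lower (42.9%), among them Etfb (-0.61) and Coq5 (-0.60), with Coq6, named after its value was seen, higher (0.59). The lower genes of that list include Atp5md, which is also a member. Of 12 regulators of biogenesis, 1 was higher (8.33%) and 5 lower (41.7%), among them Esrra (-0.73), Ppargc1b (-0.57), Gabpb2 (-0.45) and Hif1a (-0.41).

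Markers of other cell types differed between the WT groups as well. Of 11 neutrophil markers tested, 1 was higher and 10 lower in WT HSC, of 10 monocyte markers 0 and 9, of 9 mast cell, basophil and eosinophil markers 0 and 9, and of 8 megakaryocyte markers 0 and 6. Of 11 stem cell markers 8 were higher and 0 lower. The summed level of the neutrophil list was 66.2 to 78.9 normalised CPM in HSC WT, with S100a9 and Lcn2 at 0, and 1665 to 1773 in HPC WT. The summed level of the proliferation list was 2690 to 2896 normalised CPM in HSC WT and 3258 to 3673 in HPC WT, with Rrm2 at 0 in both. The part of these differences in the respiratory chain values was not tested.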

How the data were processed

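RNA sequencing libraries of 18 samples in 6 groups were used, and 2 CUT&Tag samples were not analysed. The authors deposited 1 table of raw counts per cell type. Per the file headers, featureCounts 2.0.6 counted read pairs in exons, summed by gene and ignoring strand. FastQC, Trim Galore 0.6.10 and STAR 2.7.11a are the other tools in the submitters' processing notes. Coordinates are those of the tables, whose headers point to mm10, while the notes list mm39. The gene length in the deposited tables (exon bases, other unit) was used for levels per kb. By its default, featureCounts leaves out reads that overlap more than 1 gene, so levels of genes with overlapping exons are uncertain.

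The edgeR 4.0.16 quasi-likelihood F test in R 4.3.3 was run on the counts, with TMM factors and the filterByExpr filter. Calls used a Benjamini-Hochberg adjusted p under 0.05, taken over every gene in the fit. Genotypes were compared in a fit of 9 libraries per cell type, and cell types, with the differences of the hom and het effects, in a fit of all 18 with the tables joined by gene. All normalised CPM use the factors of the 18-library fit, so fold changes can differ slightly from ratios of them. Values after ± are SD for levels and SE for log2 fold changes. A level of 3 counts, the most that 0 counts allow, equals 0.111 to 0.18 CPM; this floor and the intervals cover counting error only. Libraries of a group differed by more than counting noise. The fits of 9 libraries were also run on simulated counts, for hom against WT only. The fit of all 18 libraries was not tested in this way.

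Named genes were the chrM protein and rRNA genes, core subunits, isoform pairs, the highest and lowest member per complex, all called members of a comparison (where over 10, the 5 higher and 5 lower ones of smallest p), Runx2 and up to 4 called genes per list. 1 gene that this rule names is not reported here. Symbols of the chrM genes are those of the tables. The members and lists were chosen with earlier results of these data known. Alternatives were DESeq2 1.42.0, RLE factors, library sizes without chrM genes, no filter on low counts, a replicate block, fits of 2 groups alone and leaving out each library. Promoter sequences and motif searches used RefSeq windows of 250 bases before the start.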

Additional observations from a re-analysis of the deposited data

Results flagged for a closer look

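The hom effect differed between HSC and HPC for 2 members, by the test of the difference itself (edgeR interaction). Ndufb1 had a difference of -0.93 on the log2 scale, HSC minus HPC, with a log2 fold change of -0.62 in HSC and 0.29 in HPC, and was lower in 3 of 3 HSC hom libraries than in any HSC WT library. Cox6a2 had a difference of 4.86, and rests on 25 counts in HSC hom and 1 in HSC WT. The low-count filter had dropped Cox6a2 from the HSC fit. Neither call held in every fit that left out a library. Groups of 3 libraries are too small for a search for outlying samples.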

How the results depend on the processing

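The count of called members was within 1.5 times the main count under RLE factors and under library sizes without chrM genes in all 9 comparisons. Without the filter on low counts it was 7 in HSC hom against WT, 8 in HSC het against WT, 7 in HSC hom against het, 2 in HPC hom against WT, 8 in HPC het against WT, 8 in HPC hom against het, 13 in the difference of the hom effect and 4 in that of the het effect, against main counts of 0, 0, 0, 1, 4, 1, 2 and 0; the cause was not tested. DESeq2 gave 1 in HSC hom against WT and 1 in HSC hom against het. With the replicate block it was 5 in HPC hom against het and 1 in the difference of the hom effect, where the call of Ndufb1 was lost (edgeR adjusted p = 0.077), and a fit of the 2 groups alone gave 6 in HPC hom against het. The labels do not say whether replicate numbers pair the samples, and the correlations do not settle it. Same-numbered libraries of different groups deviated with correlations of -0.13 to 0.23, and differently numbered ones with -0.27 to 0.27. In hom against WT all same-numbered correlations were positive, from 0.03 to 0.23. The block gave 42 called members in WT HSC against WT HPC, against 59. The calls of Atp5a1, ND6, Ndufa4, Ndufs1 and Uqcrfs1 were among those lost. Leaving out a library gave 0 to 1 in HSC hom against WT, 0 in HSC het against WT, 0 to 3 in HSC hom against het, 0 to 6 in HPC hom against WT, 2 to 5 in HPC het against WT, 0 to 2 in HPC hom against het, 0 to 3 in the difference of the hom effect, 0 in that of the het effect and 49 to 61 in WT HSC against WT HPC. No called log2 fold change of the genes followed changed sign under any of these alternatives. Followed were Runx2, the chrM protein and rRNA genes, core subunits, isoform pairs, the level extremes per complex and the called members named by rule. Genes of the lists, and members named after their values were seen, were not followed. With 3 libraries a group, small changes can be missed. Over all genes, the counts of calls that moved by more than 1.5 times were 300 in HSC hom against WT (DESeq2 810, no filter 898, replicate block 189, the 2 groups alone 155, without a library 48 to 638), 5 in HSC het against WT (DESeq2 216, no filter 399, the 2 groups alone 299, without a library 2 to 7), 2 in HSC hom against het (DESeq2 174, no filter 511, the 2 groups alone 1, without a library 1 to 408), 431 in the difference of the hom effect (DESeq2 851, no filter 738, without a library 149 to 941) and 300 in that of the het effect (DESeq2 499, no filter 592, without a library 138 to 292). Without a library there were 701 to 1179 in HPC hom against het, against 1303.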
